A study of Homo sapiens with 14 samples.

Results

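Glycolysis and hypoxia-responsive genes were followed in the Kasumi-1 cell line, a human line established from acute myeloid leukaemia with the RUNX1-RUNX1T1 fusion, also called AML1-ETO. The group was a list of 35 genes, 23 that carry glucose from uptake to lactate and 12 of oxygen sensing and its targets, and was not chosen by a threshold on the measurements. It was drawn up with earlier results of these data known. Of these 35 genes, 32 had at least 1 probe set annotated to that gene alone, 54 probe sets in all, and 28 were bright enough to be tested among 7178 of 11963 genes. SLC16A3, CA9 and ANKRD37 were not analysed here, and SLC2A3, PFKFB4, ENO2 and ADM lay below the brightness filter. RNA of whole cultures was labelled for 14 single-colour arrays at 96 h, with or without transfection. In 1 arm the cells received siRNA directed at AML1-ETO, at 240 nM with the lipid reagent siLentFect (3 arrays) or at 1.5 µM by Amaxa nucleofection, which uses an electric pulse (3 arrays). The control arm received siRNA directed at firefly luciferase in the same ways, on 3 lipid and 2 nucleofection arrays. Nucleofection without siRNA gave 1 array and untransfected cells gave 2. The method and the siRNA concentration cannot be told apart. The labels did not say that replicates were separate cultures, so p-values here reflect array-to-array spread that could be technical.

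Glycolysis splits glucose into pyruvate in the cytosol. Glucose enters through facilitative transporters, is trapped as a phosphate by hexokinase and is committed at phosphofructokinase, and the later enzymes return ATP and NADH before lactate dehydrogenase recycles the NADH. Many of the enzymes are also targets of the hypoxia-inducible factor HIF, whose alpha subunit is hydroxylated by prolyl hydroxylases such as EGLN1 and then degraded while oxygen is present. When oxygen falls HIF binds short elements with the core ACGTG or GCGTG and raises transporters, glycolytic enzymes, PDK1 and VEGFA, and EGLN1 is itself such a target. Leukaemic blasts commonly rely on glycolysis even where oxygen is present.

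The deposited intensities averaged 138.5 on every array, and 38.4% to 44.3% of the probe sets of an array lay below the floor of 20 to which low intensities were raised. RUNX1T1, which reads the fusion, had intensities of 644 and 763 by nucleofection with luciferase siRNA and 318, 328 and 251 with AML1-ETO siRNA. By lipid the values were 539.7, 560.3 and 567 with luciferase siRNA and 399.7, 426 and 502 with AML1-ETO siRNA. The limma difference was -1.24 on the log2 scale by nucleofection (adjusted p = 0.00288) and -0.34 by lipid (adjusted p = 0.999), so the lowering by lipid did not pass the test. Of 9 myeloid progenitor markers, a list that includes RUNX1T1, 8 were measured, and they summed to 11525 to 21239.7 on an array. Of 6 lymphoid markers 5 were measured, and they summed to 96.9 to 155 by lipid and 138 to 199.5 by nucleofection with siRNA. The myeloid sum was 13755 to 18713 by lipid, 20232 to 21239.7 with AML1-ETO siRNA by nucleofection and 11525 to 12388 with luciferase siRNA by nucleofection. Of 6 erythroid markers 3 were measured, with ALAS2 below the floor on every array, and summed to 443 to 553 by lipid and 305 to 346 by nucleofection with siRNA. All 7 stromal and epithelial markers, with KRT19 below the floor on every array, summed to 382 to 453 by lipid and 241 to 298 by nucleofection with siRNA. The part of these differences in the results was not tested. Intensities of 1 probe set can be compared between arrays, but not those of different genes or the sums of different lists. Probe sets with the suffix _s_at or _x_at may also bind related transcripts. Fewer cells of a kind and less RNA per cell cannot be told apart in such arrays.

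The HIF core motif was looked up in the RefSeq promoter table (GRCh38.p14), in windows of 300 bases that run from 250 bases before to 50 bases after each listed gene start. ACGTG or GCGTG was counted on both strands, so that CACGTG counts on each. The table lists several starts for some genes. Of the 59 windows of the group 40 held at least 1 match, beside 48.4% of all 35116 windows. Counted by gene, where 1 window of any start is enough, 30 of the 32 genes with an entry had a match, beside 52.4% of all 27305 genes. PGAM1 and P4HA2 had none, and SLC2A3, VEGFA and NDRG1 had no entry. Stretches upstream of the start are shown for 5 genes whose RNA differed between groups and for LDHA, a classical HIF target that passed no test here. They are read 5′ to 3′ on the gene's own strand and end at the last base before the start, with the matches in capitals. The stretches are chr17:28576896-28577145 on the minus strand, chr1:231422288-231422347 on the minus strand, chr2:172556030-172556089 on the plus strand, chr12:6535144-6535263 on the plus strand, chr3:4979187-4979436 on the plus strand and chr11:18394363-18394562 on the plus strand.
ALDOC: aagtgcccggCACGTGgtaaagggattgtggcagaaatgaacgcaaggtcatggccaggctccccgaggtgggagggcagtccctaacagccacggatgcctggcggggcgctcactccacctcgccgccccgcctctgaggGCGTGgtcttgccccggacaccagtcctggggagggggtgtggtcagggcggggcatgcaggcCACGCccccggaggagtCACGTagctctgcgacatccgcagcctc
EGLN1: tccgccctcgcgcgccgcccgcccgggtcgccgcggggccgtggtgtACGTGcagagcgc
PDK1: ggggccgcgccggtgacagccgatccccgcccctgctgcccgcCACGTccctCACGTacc
GAPDH: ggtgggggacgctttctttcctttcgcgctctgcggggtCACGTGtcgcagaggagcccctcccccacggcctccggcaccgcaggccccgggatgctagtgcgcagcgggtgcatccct
BHLHE40: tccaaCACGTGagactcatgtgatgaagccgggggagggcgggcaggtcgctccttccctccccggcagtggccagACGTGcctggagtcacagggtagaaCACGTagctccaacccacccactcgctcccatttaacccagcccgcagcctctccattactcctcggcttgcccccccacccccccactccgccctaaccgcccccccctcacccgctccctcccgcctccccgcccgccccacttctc
LDHA: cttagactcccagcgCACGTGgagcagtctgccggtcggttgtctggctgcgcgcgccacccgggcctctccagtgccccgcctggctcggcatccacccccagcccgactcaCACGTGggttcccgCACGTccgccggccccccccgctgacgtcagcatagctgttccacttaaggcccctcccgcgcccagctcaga
In the whole windows shown ALDOC held 5 matches, LDHA 6, BHLHE40 4, PDK1 and GAPDH 2 each and EGLN1 1. Where a gene had several starts the window with most matches was shown. The other listed start of PDK1 held 0 matches and that of LDHA 1. A match is only a description of these letters.

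Nucleofection against lipid, taken as the mean of both siRNAs, was the comparison in which most genes of the group differed. SLC2A1, ALDOC, PKM, PDK1, EGLN1, VEGFA and NDRG1 were lower by nucleofection and GAPDH was higher. By limma, 8 of the 28 genes tested passed at an adjusted p below 0.05, beside 25.6% of all genes tested. By direction 1 was higher, beside 3.68% of all genes, and 7 were lower, beside 22% of all genes. The share of the group was therefore near that of the array as a whole. The median difference was -0.14 over the group and -0.17 over all genes, both on the log2 scale. In the span from glucose transport to lactate, 1 gene rose and 4 fell of 19 tested, and in oxygen sensing and HIF targets 3 fell of 9. The other 20 genes lay between -0.31 for PGK1 and 0.34 for BHLHE40, with a smallest adjusted p of 0.0558. Centring each array on its median, which sets the shift of -0.17 of all genes to 0, gave 3 higher and 5 lower, and quantile normalization gave 2 higher and 3 lower.

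**Figure D1:**
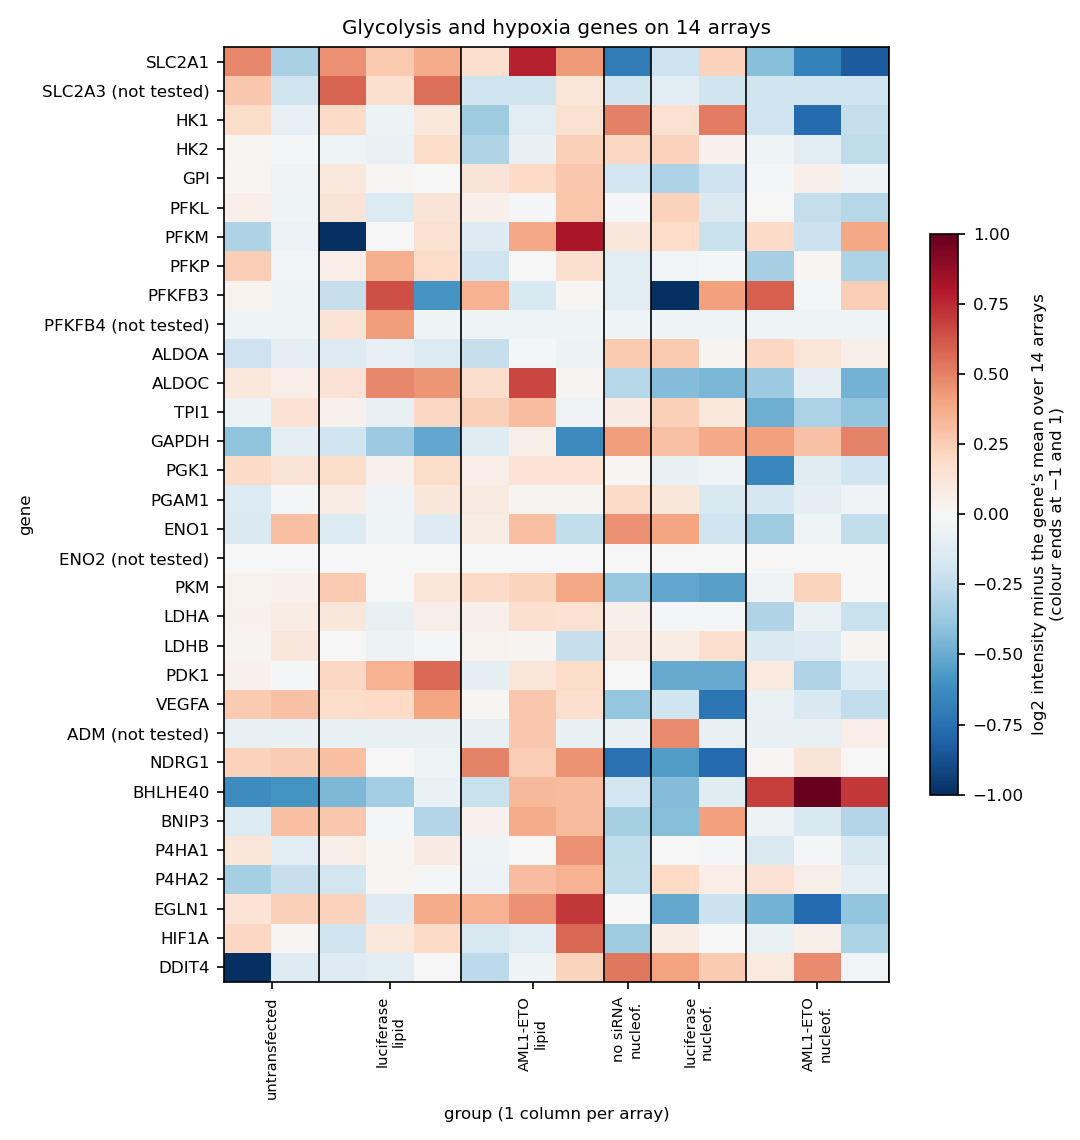
Rows are the 32 genes with a probe set and columns are the 14 arrays by group. Colour is log2 intensity, raised to a floor of 20, minus the gene's mean over all arrays, and ends at -1 and 1. GAPDH was above its mean on every nucleofection array and ALDOC and EGLN1 were below theirs on those with siRNA, and BHLHE40 was highest with AML1-ETO siRNA by nucleofection.

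At glucose entry, SLC2A1, the basal glucose transporter GLUT1, was lower by nucleofection. Its intensities were 157, 138 and 148 with luciferase siRNA and 129, 195 and 154 with AML1-ETO siRNA by lipid. By nucleofection they were 99.3 and 135 with luciferase siRNA and 85.1, 71.8 and 64.3 with AML1-ETO siRNA. The highest luciferase nucleofection array lay within the lipid range, whereas the AML1-ETO nucleofection arrays all lay below it. The difference between methods was -0.72 (SE 0.17, limma adjusted p = 0.0086) as the mean of both siRNAs. That call was lost after quantile normalization and with the log2 scale factor of each array as a covariate. The 2 untransfected arrays lay far apart, at 160.2 and 91.5, and the array without siRNA read 70.5. The second SLC2A1 probe set was dim at 6.80 to 54.0 over all arrays, with a difference of 0.20 (adjusted p = 0.613), and the mean of both probe sets gave -0.26 (adjusted p = 0.334).

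SLC2A3, the high-affinity transporter GLUT3, was too dim to be tested, but its arrays were not alike. Its brightest probe set read 34.2, 25.6 and 33.6 with luciferase siRNA by lipid and 18.4, 19.9 and 24.9 with AML1-ETO siRNA by lipid. By nucleofection the values were 21.2 and 13.4 with luciferase siRNA and 0.871, 3.37 and 6.56 with AML1-ETO siRNA. The AML1-ETO nucleofection arrays were all below the floor and below every other array. In a fit without the brightness filter, on floored values, the AML1-ETO nucleofection group differed by -0.11 from AML1-ETO siRNA by lipid (limma adjusted p = 0.745) and by -0.04 from luciferase siRNA by nucleofection (adjusted p = 0.957). None of the 11 comparisons of SLC2A3 passed in that fit. On the other probe sets the AML1-ETO nucleofection arrays read 3.36, 5.59 and 5.46 and 2.49, 1.83 and 5.62, again the lowest of all arrays, beside 8.29 to 31.8 and 8.81 to 28.9 elsewhere. These AML1-ETO nucleofection values also lay below the floor. SLC2A3 was described by array after its values were seen, so the ranking is a description without a test. The hexokinases that trap glucose passed no comparison. HK1 ranged from 181 to 440.1 and HK2 from 148 to 215 over the 14 arrays.

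In the middle of the pathway ALDOC and TPI1 passed tests. ALDOC is the aldolase isozyme best known from brain. On the lipid arrays it read 63.0, 79.9 and 77.3 with luciferase siRNA and 64.5, 90.7 and 58.2 with AML1-ETO siRNA. After nucleofection it read 42.3 and 41.5 with luciferase siRNA and 44.4, 53.7 and 41.2 with AML1-ETO siRNA. Every nucleofection array with siRNA lay below every lipid array, and the array without siRNA, at 46.8, did too. The difference was -0.70 (SE 0.14, limma adjusted p = 0.00347), and with a floor of 64, which lies above all its nucleofection arrays, it shrank to -0.18 (adjusted p = 0.188). ALDOA, the main aldolase, read 1054 to 1221 by lipid and 1261 to 1484 by nucleofection, and its difference of 0.25 had an adjusted p of 0.0765.

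TPI1, which interconverts the triose phosphates, was low on the AML1-ETO nucleofection arrays. They read 1545, 1739 and 1647, beside 2555 and 2329.9 for luciferase siRNA by nucleofection. By lipid TPI1 read 2231, 2066 and 2502 with luciferase siRNA and 2555, 2690.2 and 2123 with AML1-ETO siRNA. Untransfected cells read 2094 and 2396 and the array without siRNA 2298. The AML1-ETO nucleofection arrays were the lowest of all, and the other groups overlapped. Between methods the difference with AML1-ETO siRNA was -0.57 (SE 0.14, limma adjusted p = 0.0226). Against luciferase siRNA by nucleofection it was -0.57 and did not pass (adjusted p = 0.0816). The second bright TPI1 probe set also had its lowest arrays there, at 1148, 1173 and 1249, with -0.47 between methods (adjusted p = 0.0476). The third was dim. With AML1-ETO siRNA it read 33.9, 25.7 and 49.95 by nucleofection and 15.7, 35.4 and 26.6 by lipid. The methods overlapped there, and this probe set did not show the lowering. The mean of all TPI1 probe sets gave -0.21 (adjusted p = 0.303), and median centring gave -0.38 (adjusted p = 0.166).

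GPI, which isomerises glucose 6-phosphate, read 1056 to 1268 by lipid and 851 to 1088 by nucleofection, and its difference between methods, -0.25, had an adjusted p of 0.0558. The 3 phosphofructokinase genes, which catalyse the committed step, ranged from 163 to 240.1 for PFKL, 24.0 to 103 for PFKM and 267 to 431 for PFKP, and none passed any of the 11 comparisons. PFKFB3, which makes the phosphofructokinase activator fructose 2,6-bisphosphate, spread from 22.0 to 65.5 between the 2 luciferase nucleofection arrays alone. The 95% interval of its difference between methods ran from -0.66 to 0.55. Its relative PFKFB4 was dim, at 3.59 to 27.7.

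GAPDH, which oxidises glyceraldehyde 3-phosphate and is often used as a reference gene, was the one gene of the group that rose by nucleofection as the mean of both siRNAs. The lipid arrays read 6804, 6076 and 5465 with luciferase siRNA and 7176, 8133 and 5023 with AML1-ETO siRNA. The nucleofection arrays read 9577 and 10143 with luciferase siRNA and 10363, 9585 and 10994 with AML1-ETO siRNA. Every nucleofection array was above every lipid array. The array without siRNA, at 10452, was also above both untransfected arrays, at 5900.4 and 7297. The brightest intensity of an array was higher too, 12433 to 14978 by nucleofection with siRNA beside 7189 to 11132 by lipid. The part of this brighter top of the scale in the rise of GAPDH was not tested. The difference between methods was 0.66 (SE 0.14, limma adjusted p = 0.00463), and 0.83 relative to the median of all genes. It was 0.25 after quantile normalization (adjusted p = 0.0746) and 0.36 with the log2 scale factor as a covariate (adjusted p = 0.0581). The authors' scale factors ran from 0.488 to 1.15 on the lipid arrays and from 0.964 to 1.56 on the nucleofection arrays with siRNA. Their part in the result was not tested beyond that fit. The same covariate also removed the calls of SLC2A1, PKM, PDK1 and VEGFA between methods as the mean of both siRNAs.

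Several GAPDH probe sets allowed the rise to be compared along the transcript. The other gene probe sets differed between methods by 0.59 (adjusted p = 0.00787) and 0.45 (adjusted p = 0.0302). The control probe set at the 3′ end read 3986 to 5615 by lipid and 6167 to 6821 by nucleofection, with no overlap. The control for the middle read 4923 to 6390.1 and 6692 to 7168, again with no overlap. At the 5′ end the luciferase nucleofection arrays, at 5651 and 6432, lay within the lipid range of 5173 to 6728, and the AML1-ETO nucleofection arrays, at 7313, 6733 and 7340.0, lay above it. The log2 ratio of the 3′ to the 5′ control ran from -0.38 to -0.17 by lipid and from -0.18 to 0.25 by nucleofection with siRNA. The same ratio for beta-actin ran from 0.30 to 0.59 by lipid and from 0.29 to 0.84 by nucleofection with siRNA. Luciferase nucleofection replicate 1 had the highest value of all arrays in both. Such ratios read RNA length and labelling, and their part in the rise of GAPDH and in the calls with luciferase siRNA was not tested.

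**Figure D2:**
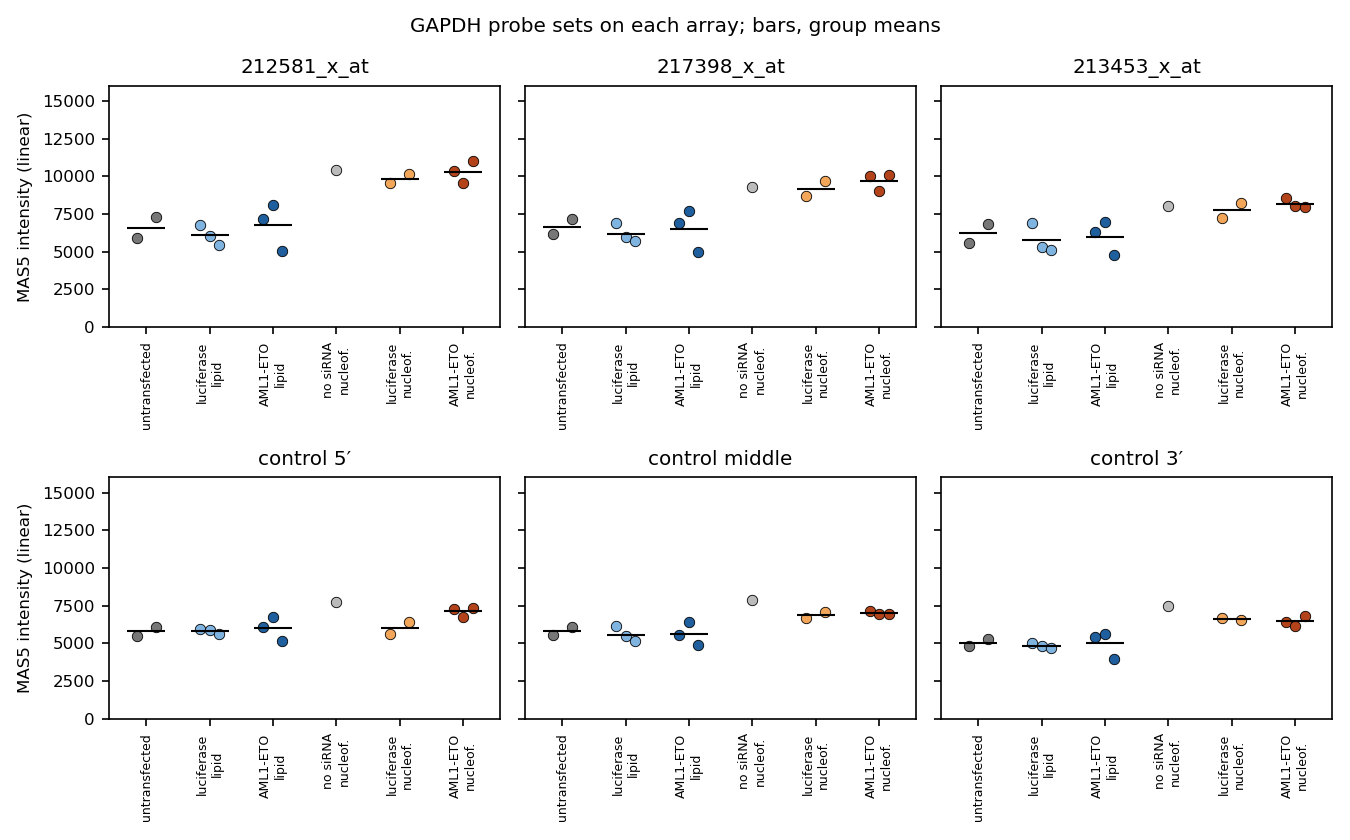
MAS5 intensity (linear) of 6 GAPDH probe sets on each array, by group. Points are arrays and bars are group means. For the brightest probe set, used in the tests, the nucleofection arrays sit above every lipid and untransfected array, and at the 5′ control the luciferase nucleofection arrays sit among the lipid ones.

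Among the later payoff enzymes PKM changed, PGK1 passed on 1 probe set other than its brightest, and PGAM1 and ENO1 did not pass. PKM encodes the pyruvate kinase isozymes of the last, ATP-yielding step. Intensities by lipid were 1425, 1189 and 1289 with luciferase siRNA and 1358, 1382 and 1551 with AML1-ETO siRNA. Intensities after nucleofection were 830.1 and 813 with luciferase siRNA and 1156, 1382 and 1184 with AML1-ETO siRNA. The luciferase nucleofection arrays and the array without siRNA, at 915, lay below all others, and the AML1-ETO nucleofection arrays overlapped the lipid range. Untransfected cells read 1214 and 1224. The difference between methods was -0.43 as the mean of both siRNAs (SE 0.10, limma adjusted p = 0.00847), and -0.26 after median centring (adjusted p = 0.0553). PKM also lost this call after quantile normalization and with the scale factor covariate. The second PKM probe set read 35.7 to 95.5 and differed by -0.30 (adjusted p = 0.296).

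PGK1, the first ATP-yielding enzyme, read 1396 to 1541 by lipid and 865 to 1326 by nucleofection. The ranges did not overlap, but its difference of -0.31 had an adjusted p of 0.0565. In the fit over probe sets the one used had an adjusted p of 0.0701, and the others differed by -0.36 (adjusted p = 0.047, which passed), -0.33 (adjusted p = 0.0761) and 0.30 (adjusted p = 0.217). PGAM1 and ENO1, the mutase and the main enolase, ranged from 980.1 to 1258 and from 2051 to 3611 with overlapping methods. ENO2, the neuronal enolase, was at 1.30 to 4.80, far below the floor on every array.

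At the fork between lactate and the mitochondrion, the lactate dehydrogenase genes passed no comparison. LDHA ranged from 1523 to 2091 and LDHB from 3107 to 4096 over the 14 arrays. The 95% interval of the difference between methods ran from -0.39 to 0.02 for LDHA and from -0.15 to 0.27 for LDHB. PDK1, the kinase that shuts pyruvate dehydrogenase and so keeps pyruvate from oxidation, was dim but differed. By lipid the values were 32.6, 36.1 and 41.8 with luciferase siRNA and 26.4, 30.9 and 32.2 with AML1-ETO siRNA. On the nucleofection arrays it read 4.80 and 10.2 with luciferase siRNA and 30.2, 22.9 and 25.8 with AML1-ETO siRNA. The luciferase nucleofection arrays were both below the floor, while the array without siRNA, at 28.3, read close to the untransfected arrays at 29.2 and 27.9. On floored values the group mean of PDK1 with luciferase siRNA was 1.83-fold lower by nucleofection than by lipid. The 95% interval of that log2 difference ran from -1.24 to -0.51. The floored difference was -0.87 with luciferase siRNA (limma adjusted p = 0.00882) and -0.53 as the mean of both siRNAs (adjusted p = 0.00592), both bounded by the floor. The latter call was lost with the log2 scale factor as a covariate. Over the 14 arrays PDK1 had a mean of 28.3, close to the lowest mean tested, 26.6. The luciferase lipid arrays, its brightest, raised that mean, so the filter and these tests were not independent.

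In the oxygen-sensing arm, the RNA of HIF1A, the regulated alpha subunit, did not pass any comparison. Its intensities by lipid were 210.0, 259 and 275 with luciferase siRNA and 216, 223 and 359 with AML1-ETO siRNA. Those by nucleofection were 254 and 241 with luciferase siRNA and 230.1, 250.1 and 193 with AML1-ETO siRNA. The methods overlapped. The 95% interval of the difference ran from -0.43 to 0.22. HIF1A is controlled largely through the stability of its protein, which arrays do not measure.

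EGLN1, the main prolyl hydroxylase that marks HIF for degradation, fell by nucleofection. On the lipid arrays it read 68.9, 53.8 and 76.3 with luciferase siRNA and 75.0, 80.9 and 96.3 with AML1-ETO siRNA. By nucleofection the values were 41.2 and 50.6 with luciferase siRNA and 42.3, 34.4 and 44.8 with AML1-ETO siRNA. Every nucleofection array with siRNA was below every lipid array and below the untransfected arrays at 64.8 and 69.5. The array without siRNA, at 58.8, lay within the lipid range. The difference between methods was -0.79 (SE 0.13, limma adjusted p = 0.0014), and -0.62 relative to the median of all genes. It kept its call in all 23 alternatives, with differences from -0.86 to -0.25, the smallest with a floor of 64.

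Of the HIF targets, NDRG1 and VEGFA were lower by nucleofection. NDRG1, a stress-responsive gene induced by hypoxia, read 200.3, 163 and 158 with luciferase siRNA and 229.5, 194 and 222 with AML1-ETO siRNA by lipid. After nucleofection it read 110.4 and 95.6 with luciferase siRNA and 164, 178 and 163 with AML1-ETO siRNA. The luciferase nucleofection arrays and the array without siRNA, at 97.1, were the lowest, and the AML1-ETO nucleofection arrays overlapped the luciferase lipid arrays. The difference was -0.55 (SE 0.10, limma adjusted p = 0.00336), and -0.32 after quantile normalization (adjusted p = 0.0639).

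VEGFA, the angiogenic growth factor, read 193, 195 and 224 with luciferase siRNA and 173, 205 and 191 with AML1-ETO siRNA by lipid. The nucleofection arrays read 148 and 103 with luciferase siRNA and 163, 154 and 144 with AML1-ETO siRNA. All nucleofection arrays with siRNA were below all lipid arrays, and the array without siRNA, at 131, was below the untransfected arrays at 204 and 208. The difference was -0.51 (SE 0.12, limma adjusted p = 0.00785), and -0.34 after median centring (adjusted p = 0.0602). VEGFA also lost this call after quantile normalization and with the scale factor covariate. The other VEGFA probe sets differed by -0.49 (adjusted p = 0.0731), -0.23 (adjusted p = 0.148) and -0.05 (adjusted p = 0.766).

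The remaining targets passed no comparison. BNIP3, a mitochondrial cell death and mitophagy gene, ranged from 47.4 to 84.5. The collagen prolyl hydroxylase subunits ranged from 181 to 296 for P4HA1 and 36.0 to 57.7 for P4HA2. DDIT4, which restrains mTOR under stress, read 39.8 to 55.6 by lipid and 46.7 to 66.0 by nucleofection. Untransfected arrays read 7.25 and 43.5, so its comparisons with untransfected cells include 1 array below the floor. ADM, a vasodilator peptide, was dim at 5.24 to 29.2.

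**Figure D3:**
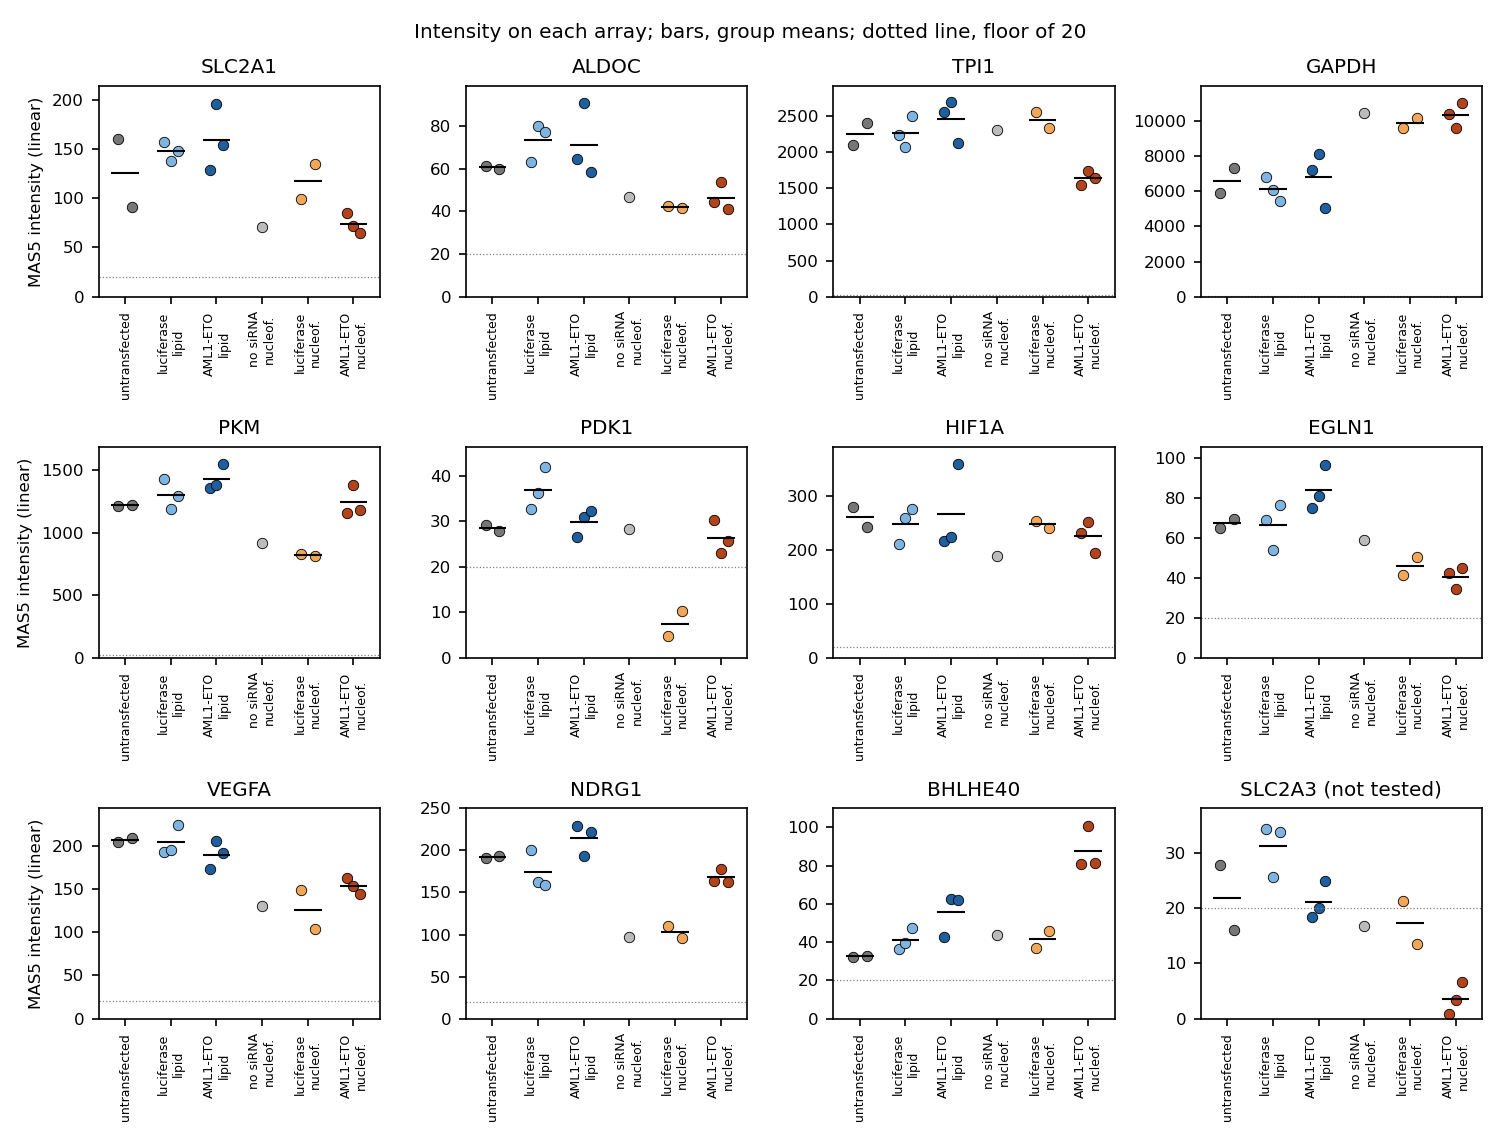
MAS5 intensity (linear, each axis from 0) on each array by group for the 11 genes described by array and for SLC2A3. Points are arrays, bars are group means and the dotted line is the floor of 20. The luciferase nucleofection arrays of PDK1 and the AML1-ETO nucleofection arrays of SLC2A3 sit below the floor.

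Within luciferase siRNA the genes that passed between methods were PDK1, NDRG1, PKM, VEGFA and ALDOC, all lower by nucleofection. These 5 of 28 stand beside 8.16% of all genes tested, with 1.13% higher and 7.04% lower. The differences were -0.87, -0.75 (adjusted p = 0.0137), -0.66 (adjusted p = 0.0197), -0.72 (adjusted p = 0.0257) and -0.80 (adjusted p = 0.0298), in that order. GAPDH differed by 0.69 and just missed (adjusted p = 0.0525). Without luciferase nucleofection replicate 2 no gene of the group passed limma, and 2 to 3 genes passed without replicate 1 of that group or without any one of the luciferase lipid arrays. The PDK1 call was lost without either luciferase nucleofection array (adjusted p = 0.0588 and 0.0557). Median centring left 3 genes lower and quantile normalization 1.

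Within AML1-ETO siRNA BHLHE40 and GAPDH were higher and EGLN1, SLC2A1, TPI1 and ALDOC lower by nucleofection. These 6 of 28 stand beside 13.4% of all genes tested, with 1.81% higher and 11.6% lower. EGLN1 differed by -1.05 (adjusted p = 0.00355) and SLC2A1 by -1.10 (adjusted p = 0.00948). BHLHE40 differed by 0.66 (adjusted p = 0.0324), GAPDH by 0.63 (adjusted p = 0.0378) and ALDOC by -0.60 (adjusted p = 0.0451). Of the 13 arrays left out in turn, the call of ALDOC was lost for 10 (adjusted p up to 0.146), that of GAPDH for 6 (up to 0.12), that of BHLHE40 for 5 (up to 0.0937) and that of TPI1 for 4 (up to 0.0753). Without AML1-ETO lipid replicate 1, or AML1-ETO nucleofection replicate 1 or 3, 2 genes of the group passed. Median centring gave 2 higher and 2 lower, and quantile normalization 1 higher and 2 lower. The difference between the siRNAs in the step from lipid to nucleofection was tested as an interaction, which passed for no gene of the group.

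**Figure D4:**
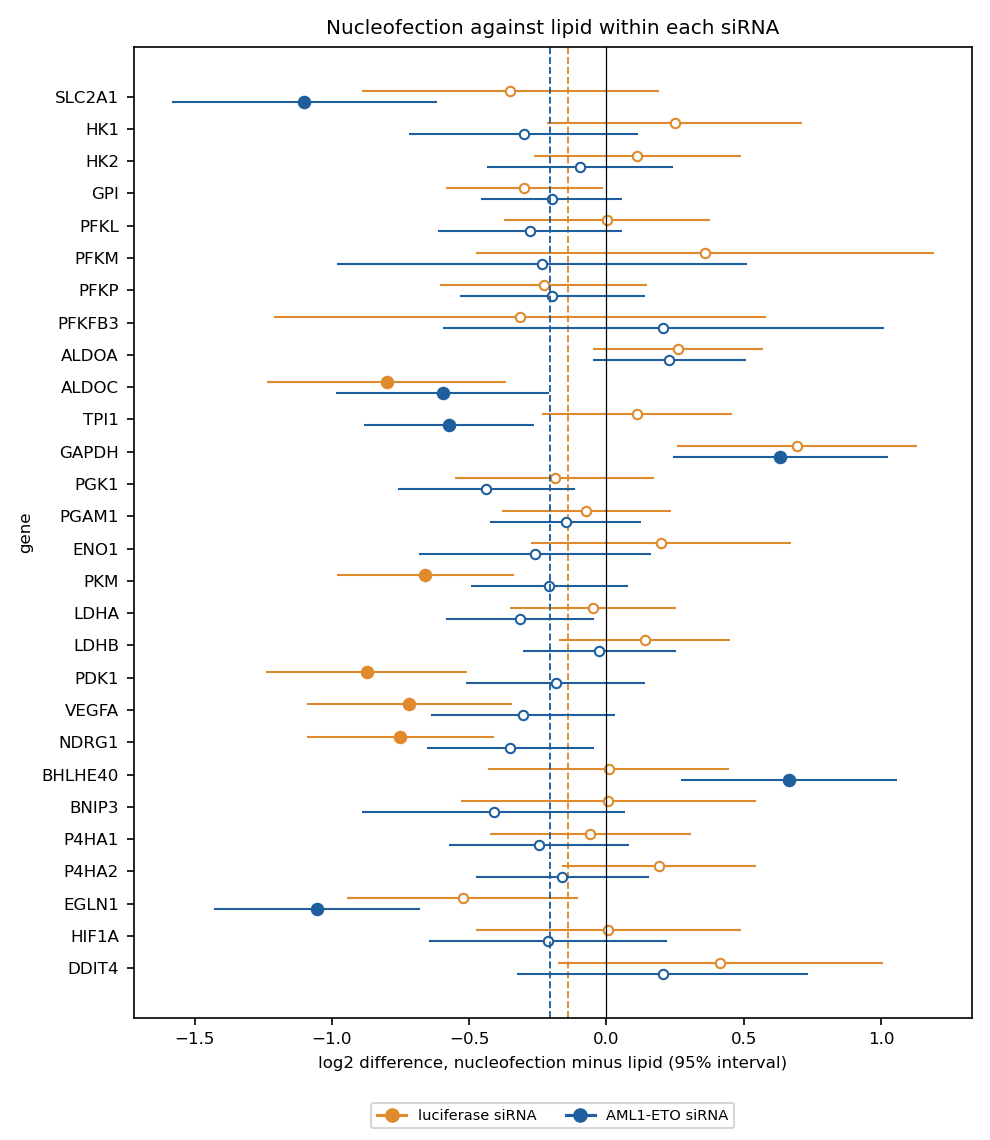
Log2 difference of nucleofection minus lipid within each siRNA for the 28 genes tested, with 95% intervals from limma. Filled points passed at an adjusted p below 0.05 and dashed lines are the medians of all genes tested, -0.14 for luciferase and -0.20 for AML1-ETO siRNA. ALDOC is the gene with filled points for both siRNAs.

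AML1-ETO against luciferase siRNA left most genes of the group short of the threshold. As the mean of both methods BHLHE40 and NDRG1 were higher, 2 of 28 beside 1.66% of all genes tested, 1.14% for the higher direction. None was lower, beside 0.515% of all genes. None of the 19 genes from glucose transport to lactate passed limma, and 3 had an unadjusted p below 0.05, beside 14.36% of all genes tested. The median of the 19 was -0.04, beside -0.07 over all genes. The largest differences that did not pass were -0.46 for HK1 (adjusted p = 0.157) and 0.44 for PFKM (adjusted p = 0.462). PKM, at 0.36, had an adjusted p of 0.103. Without luciferase nucleofection replicate 1 no gene of the group passed limma, and 1 did without AML1-ETO lipid replicate 1 or 3, any AML1-ETO nucleofection array, luciferase nucleofection replicate 2, or luciferase replicate 2 or 3 by lipid.

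BHLHE40, a transcriptional repressor of the circadian clock that hypoxia induces, stood out with AML1-ETO siRNA by nucleofection. It read 80.7, 100.5 and 81.6 there and 37.0 and 45.8 with luciferase siRNA. The lipid arrays read 42.8, 62.5 and 62.1 with AML1-ETO siRNA and 36.6, 39.4 and 47.6 with luciferase siRNA. Untransfected cells read 32.4 and 33.0 and the array without siRNA 43.7. The AML1-ETO nucleofection arrays were above all others, and by lipid the lowest AML1-ETO array overlapped the luciferase arrays. The difference was 0.75 as the mean of both methods (SE 0.14, limma adjusted p = 0.0163). Without luciferase nucleofection replicate 1 it was 0.68 (adjusted p = 0.0814). The second BHLHE40 probe set read only 5.04 to 24.0, and the mean of both gave 0.39 (adjusted p = 0.0565).

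NDRG1 differed by 0.51 as the mean of both methods (SE 0.10, adjusted p = 0.0315). By nucleofection, where 2 genes of 28 passed beside 2.62% of all genes (1.63% higher and 0.989% lower), NDRG1 differed by 0.71 (adjusted p = 0.0359) and BHLHE40 by 1.08 (adjusted p = 0.0168). NDRG1 in the luciferase nucleofection group was low beside untransfected cells, whereas in the AML1-ETO group it read 164, 178 and 163 beside 191 and 194 in untransfected cells. Of the 13 arrays left out in turn, its call as the mean of both methods was lost for 9, with differences from 0.46 to 0.56 and an adjusted p of up to 0.151, and its call by nucleofection for 6, with an adjusted p of up to 0.225. BHLHE40 by nucleofection had an adjusted p of 0.134 without luciferase nucleofection replicate 1 and 0.0508 without replicate 2, and without either no gene of the group passed limma there. Without luciferase lipid replicate 2 or any AML1-ETO nucleofection array 1 gene passed, and without AML1-ETO lipid replicate 3, 3 did. The myeloid marker sums, given with the array facts, also differed between these nucleofection groups, and their part in these calls was not tested. Short of the threshold by nucleofection were PKM at 0.59 (adjusted p = 0.0553), TPI1 at -0.57 and HK1 at -0.73 (adjusted p = 0.0932).

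By lipid no gene of the group passed limma, beside 0.125% of all genes tested (0.111% higher and 0.0139% lower), and 2 of 28 had an unadjusted p below 0.05, beside 4.53% of all genes. These were BHLHE40 at 0.43 and NDRG1 at 0.31, both with an adjusted p of 0.999. The lowering of RUNX1T1 by lipid did not pass the test either. The difference between methods in the effect of the siRNA passed for no gene of the group, beside 0.0557% of all genes, and for 5 of 28 the unadjusted p was below 0.05, beside 10.76% of all genes. The estimates were -0.75 for SLC2A1 (SE 0.34, adjusted p = 0.449) and 0.45 for PKM (SE 0.20, adjusted p = 0.442). The others were -0.69 for TPI1 (SE 0.21) and 0.69 for PDK1 (SE 0.23), both with an adjusted p of 0.319, and 0.66 for BHLHE40 (adjusted p = 0.409). The PDK1 value is bounded by the floor.

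**Figure D5:**
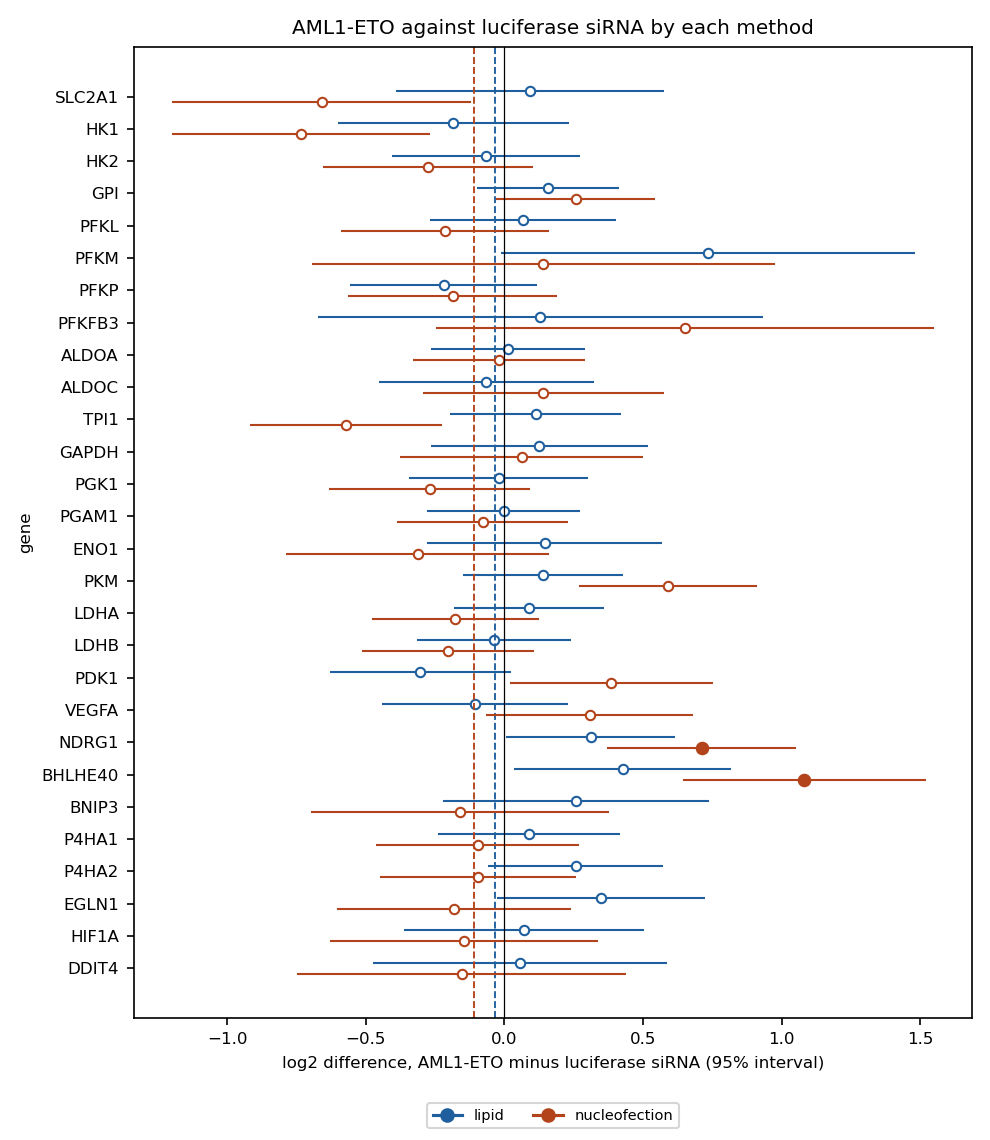
Log2 difference of AML1-ETO minus luciferase siRNA by each method for the 28 genes tested, with 95% intervals from limma. Filled points passed at an adjusted p below 0.05 and dashed lines are the medians of all genes tested, -0.03 by lipid and -0.11 by nucleofection. BHLHE40 and NDRG1 by nucleofection are the filled points.

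Untransfected cells gave a baseline for each treatment, and the comparisons share these 2 arrays. With luciferase siRNA by lipid no gene of the group passed limma, beside 0% of all genes tested, and 1 of 28, DDIT4 at 0.61, had an unadjusted p below 0.05, beside 3.72% of all genes. With luciferase siRNA by nucleofection NDRG1 and VEGFA were lower, 2 of 28 beside 5.14% of all genes, with 1.24% higher and 3.9% lower. NDRG1 differed by -0.91 (SE 0.17, adjusted p = 0.0128) and VEGFA by -0.74 (SE 0.19, adjusted p = 0.0432). Neither passed without luciferase nucleofection replicate 2 (adjusted p = 0.0857 and 0.243) or without either untransfected array, and VEGFA lost its call for 10 of the 13 arrays left out in turn. With AML1-ETO siRNA by lipid no gene of the group passed limma, beside 0.111% of all genes (0.0836% higher and 0.0279% lower), and 3 of 28 had an unadjusted p below 0.05 (5.84% of all genes), among them BHLHE40 at 0.75 (adjusted p = 0.398). With AML1-ETO siRNA by nucleofection BHLHE40 was higher by 1.42 (SE 0.20, adjusted p = 0.00153) and EGLN1 differed by -0.74 (SE 0.19, adjusted p = 0.0371), 2 of 28 beside 8.15% of all genes, with 1.73% higher and 6.42% lower. BHLHE40 kept this call in all 23 alternatives, while EGLN1 lost it in 11, among them leaving out either untransfected array or any AML1-ETO nucleofection array (adjusted p up to 0.168) and median centring at -0.59 (adjusted p = 0.0862).

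The single array of nucleofection without siRNA was set beside untransfected cells without a test. On the log2 scale NDRG1 differed by -0.99, SLC2A1 by -0.78, VEGFA by -0.66, PKM by -0.41 and ALDOC by -0.37 from the untransfected mean, and GAPDH by 0.67. With luciferase siRNA by nucleofection, set against the same 2 arrays, the values were -0.91, -0.07, -0.74, -0.57, -0.53 and 0.59 in the same order of genes. PDK1 differed by -0.01 without siRNA and -0.51 with it, and EGLN1 by -0.19 and -0.56. BHLHE40, which rose with AML1-ETO siRNA by nucleofection, differed by 0.42 without siRNA and 0.33 with luciferase siRNA.

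Neighbouring genes of the same metabolism were counted on lists that share no gene with the 35. Between methods as the mean of both siRNAs, 3 of 10 pyruvate dehydrogenase and pyruvate entry genes tested fell and none rose. They were the dehydrogenase subunits PDHB at -0.62 and PDHA1 at -0.56, and its activating phosphatase PDP1 at -0.49. Of 16 other HIF targets 6 fell and none rose, among them TFRC, the transferrin receptor, at -0.58, and CCNG2, a growth-arrest cyclin, at -0.97. Of 8 HIF regulators 2 fell, HIF1AN, the asparaginyl hydroxylase that blocks HIF activity, at -0.91 and RBX1, a ubiquitin ligase subunit, at -0.39. HIF1AN passed within luciferase siRNA (-1.34, limma adjusted p = 0.0169) and not within AML1-ETO siRNA. By nucleofection HIF1AN read 27.8 and 7.64, the latter below the floor, with luciferase siRNA. With AML1-ETO siRNA it read 33.4, 61.4 and 54.2 by nucleofection and 83.3, 69.7 and 53.0 by lipid, which overlap. Of 11 MYC and mTOR nutrient genes 6 fell, among them TXNIP, which restrains glucose uptake, at -0.54, RHEB, the mTOR activator, at -0.56 and the kinase AKT1 at -0.55. Of 6 other isozymes and side enzymes 1 rose, GAPDHS at 0.50, and 2 fell, ADPGK at -0.61 and PGM1 at -0.48. Of 4 gluconeogenesis genes PC, pyruvate carboxylase, fell at -0.90. It passed within luciferase siRNA (-1.45, limma adjusted p = 0.0256) and not within AML1-ETO siRNA. PC read 40.1 to 65.1 by lipid. By nucleofection it read 22.7 and 9.01 with luciferase siRNA and 38.1, 6.26 and 64.3 with AML1-ETO siRNA. The values of 9.01 and 6.26 lie below the floor. Over all genes tested 3.68% rose and 22% fell in this comparison. The medians of these lists ran from -0.36 to -0.16, beside -0.17 over all genes.

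With AML1-ETO against luciferase siRNA, the calls on these lists were of other HIF targets. CXCR4, a chemokine receptor induced by hypoxia, read 275, 253 and 232 by nucleofection with AML1-ETO siRNA and 78.3 and 114 with luciferase siRNA. The groups did not overlap, and CXCR4 was higher by 1.42 by nucleofection (limma adjusted p = 0.00203) and 0.89 averaged over both methods (adjusted p = 0.00334). Untransfected cells read 158 and 186, and luciferase siRNA by nucleofection was itself lower than these by -0.86 (limma adjusted p = 0.0337). The AML1-ETO nucleofection arrays lay above them. PLIN2, a lipid droplet coat protein, read 96.8, 97.2 and 102 by nucleofection with AML1-ETO siRNA and 188 and 236 with luciferase siRNA. It was lower, with -1.09 (limma adjusted p = 0.0093), and did not pass as the mean of both methods. Untransfected cells, at 137 and 170, lay between these groups. No tested gene of the lists for isozymes, gluconeogenesis, pyruvate entry, HIF regulators or nutrient signalling passed limma in this comparison. Of their 39 tested genes, 3 had an unadjusted p below 0.05 as the mean of both methods, beside 14.36% of all genes. By lipid 4 did, beside 4.53%, and by nucleofection 6 did, beside 18.89%.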

How the data were processed

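Each of 22283 probe sets had 1 deposited intensity on a linear scale per array, on 14 arrays. The authors used MAS5 for these intensities, per the submitters' processing notes, and 1 scale factor per array is listed, per the labels. Dividing the deposited values by that factor gave values with a single decimal in 100% of cases. The MAS5 version and settings are not given in the sources used here. Every array had the same mean, so a change common to nearly all genes is invisible, and the small number of arrays limits the precision. Of the probe sets, 19065 had 1 gene symbol in the platform annotation and were named, while 1043 with several symbols and 2107 with none were not.

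Values were raised to a floor of 20 and turned into log2, which understates differences of dim genes. The brightest probe set stood for each of 11963 genes, and 7178 genes, the upper 60% by mean (at least 26.6), were tested. Means of 6 groups were fitted to all arrays with limma 3.58.1 (lmFit, eBayes) in R 4.3.3, with 8 residual and 4.65 prior degrees of freedom. A gene was called where the Benjamini-Hochberg adjusted p over all genes tested was below 0.05. Other probe sets of a gene come from the same fit on the upper 60% of all probe sets, with p adjusted over those. The steps were tested on simulated data. Values on every array are given for genes of the group called in at least 1 of the 11 comparisons, up to 14 by smallest adjusted p, and for HIF1A and GAPDH. From each other list up to 4 called genes a comparison, by smallest p, could be named. Array values of SLC2A3 are an exception, chosen after they were seen. The members, the lists and this rule were chosen with earlier results of these data known. Alternatives changed the scaling, floor, filter, probe sets, variance model, arrays fitted, covariates and single arrays. Plots came from matplotlib 3.10.9 with pandas 2.3.3 and numpy 2.4.6, under Python 3.11.15.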

Additional observations from a re-analysis of the deposited data

Results flagged for a closer look

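On the array of nucleofection without siRNA, which no test used by itself, GAPDH stood 0.52 above the higher untransfected array on the log2 scale, with an intensity of 10452 beside 5900.4 and 7297. The brightest intensity of that array was 13514, beside 9449 and 10153 on the untransfected arrays. DDIT4 stood 0.66 above the higher untransfected array, with 68.6 beside 7.25 and 43.5, and the lower untransfected array was below the floor. Both were taken because they were more than 0.5 above every untransfected array, and with 1 array neither has a replicate check.

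The PDK1 difference between AML1-ETO and luciferase siRNA went in opposite directions by the 2 methods, with no overlap of arrays in either. It passed limma in neither, with -0.30 by lipid (adjusted p = 0.999) and 0.39 by nucleofection (adjusted p = 0.244). By lipid the AML1-ETO arrays were the lower ones and by nucleofection the higher ones. The luciferase nucleofection arrays, at 4.80 and 10.2, were both below the floor. The AML1-ETO nucleofection arrays, at 22.9 to 30.2, read near the untransfected arrays at 29.2 and 27.9. The interaction was 0.69 on the floored log2 scale and did not pass limma (adjusted p = 0.319).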

How the results depend on the processing

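Each comparison was recomputed under 10 alternatives with all arrays and 13 that leave out 1 array. Of 253 counts of passing genes of the group, 184 stayed within 1.5 times the value reported. Of 27 calls of a gene in a comparison, 3 held under every alternative run, EGLN1 between methods as the mean of both siRNAs and with AML1-ETO siRNA, and BHLHE40 with AML1-ETO siRNA by nucleofection against untransfected cells, and 0 reversed. PDK1 has no value with a floor of 64.

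For the mean difference between methods, reported as 8 genes, quantile normalization gave 5 and the scale factor as a covariate 3. For luciferase siRNA between methods, reported as 5, centring gave 3, quantile normalization 1, the covariate 2 and only the groups compared 2. For AML1-ETO siRNA between methods, reported as 6, quantile normalization gave 3, the mean of all probe sets 3, the covariate 2 and only the groups compared 2. For AML1-ETO against luciferase siRNA by nucleofection, reported as 2, quantile normalization, the offset of 16 and no filter gave 4 each, a floor of 64 and the mean-variance trend 5 each, and only the groups compared 0. For luciferase siRNA by nucleofection against untransfected cells, reported as 2, a floor of 64 and the offset of 16 gave 4 each, quantile normalization and the mean of all probe sets 1 each, and the covariate and only the groups compared 0 each. For AML1-ETO siRNA by nucleofection against untransfected cells, reported as 2, the trend gave 6, a floor of 64 gave 4, and quantile normalization, the covariate and only the groups compared 1 each. The causes were not tested.

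Leaving out 1 array gave 8 to 9 genes for the mean difference between methods, 0 to 6 within luciferase and 2 to 6 within AML1-ETO siRNA. For the siRNA effect it gave 0 to 2 averaged over methods and 0 to 3 within nucleofection. Against untransfected cells it gave 0 to 2 for luciferase and 1 to 3 for AML1-ETO siRNA by nucleofection, and 0 for the lipid groups, the lipid siRNA effect and the interaction.

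With the replicate number as a block (replicate block), the mean difference between methods kept a count of 8. The block gave 3 within luciferase siRNA, and 1 each for the siRNA effect averaged over methods and within nucleofection, and for either siRNA by nucleofection against untransfected cells. Deviations from the group means of the 22 same-numbered pairs correlated from -0.287 to 0.053, beside -0.265 to 0.287 for 45 other pairs, so the numbers were not taken to pair the arrays. Dim signal limits PDK1, SLC2A3, PFKFB4, ENO2 and ADM, whose arrays lie partly or wholly below the floor. It also limits HIF1AN, PC and PDP1 of the other lists, which have arrays below the floor.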
